A study of Homo sapiens with 3 samples.

Results

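NRF2, the transcription factor encoded by NFE2L2, is the main activator of antioxidant genes in human cells. KEAP1 binds NRF2 in unstressed cells and delivers it to a CUL3 ubiquitin ligase for degradation, and oxidants or electrophiles that modify KEAP1 let NRF2 accumulate and bind antioxidant response elements near its target genes. Its known targets include NQO1, HMOX1, both subunits of glutamate-cysteine ligase (GCLC and GCLM), SRXN1, TXN and PRDX1. SOD1, a copper and zinc superoxide dismutase, removes superoxide in the cytosol and was included beside them.

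The 10 RefSeq transcripts described here, 1 for each of these genes, were chosen by a list of identifiers fixed by name and role, out of 25443 transcripts that had a value in at least 1 sample. They are NFE2L2 (NM_006164), KEAP1 (NM_012289), NQO1 (NM_000903), HMOX1 (NM_002133), GCLC (NM_001498), GCLM (NM_002061), SRXN1 (NM_080725), TXN (NM_003329), PRDX1 (NM_002574) and SOD1 (NM_000454). All 10 had a value in all 3 samples, and their list was made with earlier results of these data known. The samples were HEK293T cells (the sample labels give the parent line, HEK293). HEK293T is an embryonic kidney line of human origin that was made to express SV40 large T antigen. They were kept for 48 h in normal medium (control), in medium with 1 mM DMSO, the solvent, or in medium with 1 µM BDE-209, a fully brominated diphenyl ether flame retardant, dissolved in DMSO at the same final 1 mM. Each condition had 1 sample, so no difference below has a replicate check. The treatment label of the control also mentions BDE-209 in DMSO-free medium, whereas its title and the treatment protocol describe untreated cells, and it is taken as untreated here.

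PolyA RNA was sequenced and the values are RPKM, read numbers divided by transcript length and by a total of mapped reads. Levels are compared between RefSeq transcripts, with a limit, given below, for genes that have 3 or more of them. The read totals that divide the values were recovered from the steps in which RPKM values rise. They were 4843624 in the control, 4782044 in DMSO and 4676793 in BDE-209. These totals are below the uniquely mapped reads that the study reports for each sample, and the reason was not tested. The reads of each transcript were recovered with them. Summed over all transcripts, these reads came to 5839170, 5774417 and 5647450 in the same order, above the totals. Whether a read was counted on more than 1 transcript was not tested. On a transcript of 1 kb, 1 read is worth 0.206 to 0.214 RPKM. Intervals below are 95% counting intervals of the recovered reads of a transcript (exact Poisson for a level, Clopper-Pearson for a ratio). They cover counting error only and not the difference between cultures. Of 8 genes known from embryonic kidney lines, 5 had at least 1 RPKM in every sample, among them VIM (261 to 299 RPKM) and KRT18 (40.7 to 48.1 RPKM), against 1 of 8 markers of leukocytes, hepatocytes, fibroblasts and endothelium, the collagen COL1A1 (4.44 to 5.19 RPKM). Any reads in every sample were found for 7 and 4 of them, respectively. EYA1 had 3 to 6 reads. No transcript with a value was matched to PAX2, or to the leukocyte markers PTPRC and CD3E. For these genes a missing match cannot be told from a missing value.

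NRF2 binds the antioxidant response element, of which the letters TGACNNNGC (N is any base) were searched on both strands of promoter windows from 250 bases before to 50 bases after the transcription start (RefSeq, GRCh38.p14). Of all 35116 windows, 13.3% held them. A window was found for 7 of the 10 genes (9 windows), and HMOX1, PRDX1 and SOD1 were not in the table. Matches were found in the window of GCLM and in 1 of the 2 windows of KEAP1. These stretches, on the strand of the gene, are shown because they hold the letters of the element that NRF2 is known to bind, with the matches in capitals.
GCLM, chr1:93909431-93909490, minus strand: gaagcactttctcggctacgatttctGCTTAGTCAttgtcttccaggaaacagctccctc
KEAP1, chr19:10502772-10502851, minus strand: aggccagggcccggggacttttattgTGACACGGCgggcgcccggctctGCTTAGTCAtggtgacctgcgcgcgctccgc
The match in GCLM begins 34 bases before the start and reads on the opposite strand. In KEAP1 one match begins 54 bases before the start on the strand of the gene, and the other begins 31 bases before it on the opposite strand. No match was found in the other window of KEAP1 or in the windows of NFE2L2, NQO1, GCLC, SRXN1 and TXN, which says only that these letters are not in those 300 bases.

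The 10 transcripts spanned 3 ranges of level. TXN, thioredoxin, which reduces disulfides in other proteins, was the highest, with 545 RPKM in the control, 529 in DMSO and 531 in BDE-209. SOD1 followed with 324, 321 and 310 RPKM. Together, TXN and SOD1 made up 89.6%, 89.7% and 89.2% of the summed RPKM of the 10 transcripts in control, DMSO and BDE-209. Their counting intervals did not overlap each other or those of any lower transcript in any sample.

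The middle range held KEAP1, GCLC, HMOX1, GCLM and SRXN1, which encode the NRF2 inhibitor, the catalytic and modifier subunits of the enzyme that limits glutathione synthesis, heme oxygenase 1, and sulfiredoxin, which repairs overoxidized peroxiredoxins. KEAP1 had 28.0 RPKM in the control (350 reads), 22.9 in DMSO (282 reads) and 25.6 in BDE-209 (308 reads). GCLC had 18.8, 21.6 and 19.7 RPKM (348, 395 and 352 reads) and GCLM 18.1, 15.9 and 16.6 RPKM (135, 117 and 119 reads) in the same order. HMOX1 had 15.7 RPKM in the control (122 reads), 18.8 in DMSO (144 reads) and 18.8 in BDE-209 (141 reads). SRXN1 had 16.6, 15.6 and 17.5 RPKM (208, 192 and 211 reads). KEAP1 lay above GCLC with intervals that did not overlap in the control and in BDE-209, but they overlapped in DMSO. The neighbours below it, in the order of mean level GCLC, HMOX1, GCLM and SRXN1, had overlapping intervals in every sample. Over the whole range GCLC in DMSO (19.5 to 23.8 RPKM) overlapped neither GCLM (13.2 to 19.1 RPKM) nor SRXN1 (13.4 to 17.9 RPKM).

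**Figure D1:**
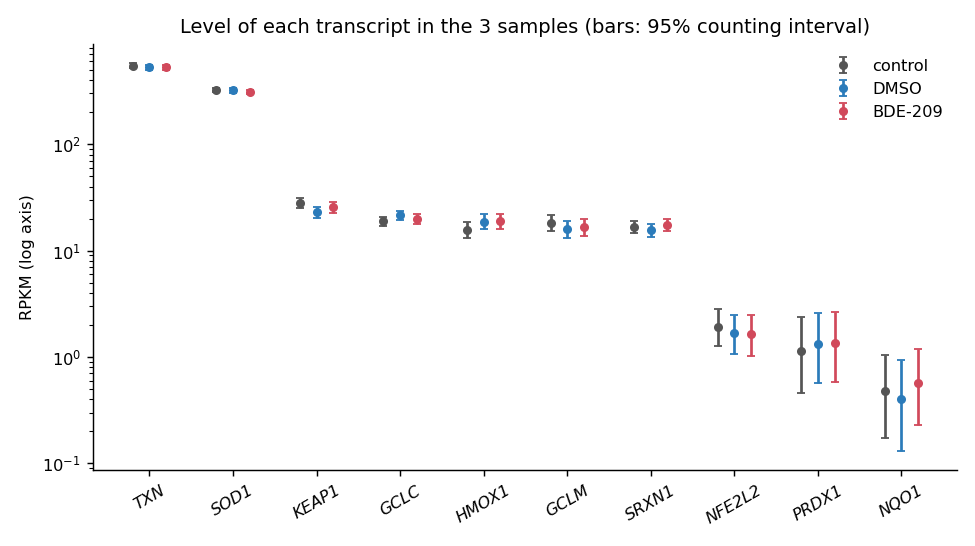
RPKM (log axis) of the 10 transcripts in control, DMSO and BDE-209, ordered by mean level, with bars for the 95% counting interval. TXN and SOD1 lie between 310 and 545 RPKM, 5 transcripts between 15.6 and 28.0 RPKM, and NFE2L2, PRDX1 and NQO1 under 2 RPKM.

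NFE2L2, PRDX1 and NQO1 formed the low range. NFE2L2 had 1.93 RPKM in the control, 1.67 in DMSO and 1.63 in BDE-209, from 27, 23 and 22 reads. PRDX1, peroxiredoxin 1, an abundant peroxide-reducing enzyme in most cells, was listed at 1.15, 1.33 and 1.36 RPKM, from 7, 8 and 8 reads. NQO1, a quinone reductase that is widely used as a marker of NRF2 activity, had 0.476, 0.402 and 0.575 RPKM, from 6, 5 and 7 reads. With so few reads, NQO1 in the control had an interval from 0.175 to 1.04 RPKM, and the intervals of PRDX1 and NQO1 overlapped in every sample.

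These 3 genes differ from the other 7 in the number of RefSeq transcripts that the files list for them. NFE2L2, PRDX1 and NQO1 have 3 listed transcripts each, KEAP1 and GCLC 2 each, and the other 5 genes have 1. For KEAP1 both transcripts had nearly the same value, with NM_203500 at 27.9, 22.7 and 25.3 RPKM in control, DMSO and BDE-209. The second GCLC transcript, NM_001197115, had 16.9, 20.1 and 18.0 RPKM. In contrast, the mean RPKM of the highest listed transcript exceeded that of the lowest 15.4-fold for PRDX1 and 11.5-fold for NFE2L2. PRDX1 had 10.7, 13.8 and 14.6 RPKM on NM_181697 (54, 69 and 71 reads) and 1.00, 0.677 and 0.865 RPKM on NM_181696. For NFE2L2, NM_001145412 had 1.64, 1.21 and 1.39 RPKM and NM_001145413 had 4, 1 and 1 reads. NQO1 had 2 to 4 reads on each of NM_001025433 and NM_001025434.

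Over all genes with coding transcripts, the level moved with this number in the same way. The highest transcript of a gene had a median of 6.81 RPKM for the 10226 genes with 1 listed transcript and 6.75 RPKM for the 3569 genes with 2. For the 987 genes with 3 the median was 1.15 RPKM, and for the 417 genes with 4 or more it was 0.773 RPKM. At least 100 RPKM was reached by 4.35%, 4.29%, 0.507% and 0.24% of the genes in these classes. Where the highest transcript had at least 1 RPKM, it exceeded the lowest by a median of 1.04-fold in genes with 2 listed transcripts and 6.78-fold in genes with 3. How reads shared by isoforms were counted is not described, and its part in these levels was not tested. The values of NFE2L2, PRDX1 and NQO1 are therefore given per listed transcript and not as levels of the genes.

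**Figure D2:**
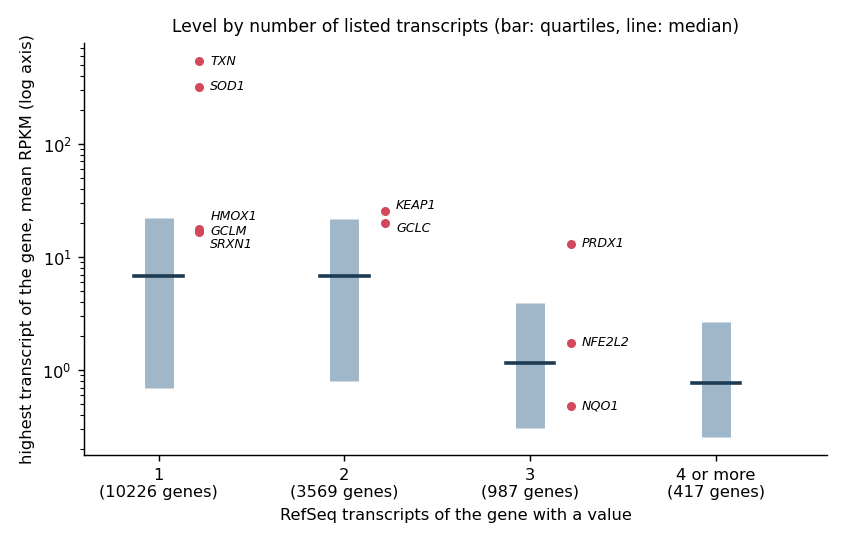
Mean RPKM over the 3 samples (log axis) of the highest transcript of each gene, by the number of RefSeq transcripts listed for the gene, with bars for the quartiles and lines for the median of all genes and points for the 10 genes. The median drops from 6.75 RPKM with 2 listed transcripts to 1.15 RPKM with 3, the class of NFE2L2, PRDX1 (here NM_181697) and NQO1.

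The comparison of DMSO with the control sets 1 sample with the solvent against 1 without it. None of the 10 transcripts differed 2-fold (log2 ratio with 0.5 added to each RPKM), a size reached by 1.57% of the 24589 transcripts compared. A lower threshold, a value at least 25% higher or 20% lower on the same scale, was used for transcripts with at least 100 reads in either sample. None of the 7 members with that many reads passed it, against 4.1% of all such transcripts. KEAP1 was the member with the clearest difference in reads. It was lower in DMSO, at 0.816 of its control value (95% interval 0.695 to 0.957). HMOX1 stood at 1.20 times the control (0.933 to 1.53), GCLC at 1.15 (0.993 to 1.33) and GCLM at 0.878 (0.679 to 1.13). SRXN1 (0.935, interval 0.764 to 1.14), TXN (0.970, 0.898 to 1.05) and SOD1 (0.993, 0.924 to 1.07) lay closer to 1. The ratios of NFE2L2 (0.863, 0.473 to 1.56), PRDX1 (1.16, 0.367 to 3.75) and NQO1 (0.844, 0.204 to 3.32) had wide intervals, and no difference was detectable from so few reads. The highest PRDX1 transcript, NM_181697, is not among the 10 and stood at 1.29 (0.893 to 1.88), from 69 against 54 reads. It was past the size of the lower threshold, which was used only with at least 100 reads.

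Beside the ratios stands a two-sided exact binomial test on recovered reads, with Benjamini-Hochberg adjustment over all transcripts. It compares these libraries, not the conditions. No member had an adjusted p under 0.05 between DMSO and control, against 0.411% of all transcripts, and KEAP1 alone had an unadjusted p under 0.05 (exact binomial p = 0.0121, adjusted p = 0.482). An unadjusted p under 0.05 belonged to 12% of all transcripts with at least 100 reads in either sample, so 1 of 7 members is near that share. The second KEAP1 transcript gave 0.814 (0.694 to 0.955), but it shares its coding exons with the first and is no independent measurement. The second GCLC transcript stood at 1.19 (1.02 to 1.40). The median log2 ratio of the 10 was -0.069, with 3 above 0 and 7 below. Over the 7 with at least 100 reads it was -0.044, with 2 above 0, beside 0.0065 for all transcripts with that many reads, of which 52.2% were above 0.

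BDE-209 dissolved in DMSO was then set against the control, whose medium held neither solvent nor compound. No member differed 2-fold, against 1.5% of 24661 transcripts, and none of the 7 with at least 100 reads passed the lower threshold, against 4.08%. HMOX1 stood at 1.20 times the control (0.933 to 1.54), the same ratio as in DMSO. KEAP1 was at 0.911 (0.779 to 1.07) and GCLM at 0.913 (0.707 to 1.18). GCLC (1.05, interval 0.901 to 1.22) and SRXN1 (1.05, 0.863 to 1.28) lay on the other side of 1. TXN was at 0.974 (0.901 to 1.05) and SOD1 at 0.956 (0.889 to 1.03). With few reads, NFE2L2 stood at 0.844 (0.458 to 1.54), PRDX1 at 1.18 (0.375 to 3.83) and NQO1 at 1.21 (0.348 to 4.35). The highest PRDX1 transcript, NM_181697, stood at 1.36 (0.942 to 1.98), from 71 against 54 reads. This was again past the size of the lower threshold with fewer than 100 reads. By the exact binomial test no member had an adjusted p under 0.05 (0.527% of all transcripts did), and none had an unadjusted p under 0.05, against 12.8% of transcripts with at least 100 reads. Of the 10, 5 were above 0 and 5 below, with a median log2 ratio of 0.014. Over the 7 with at least 100 reads it was -0.038, with 3 above 0, beside 0.0058 for all transcripts with that many reads, of which 51.7% were above 0. Both comparisons share the control sample, so a low or high control value would enter both.

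BDE-209 against DMSO compares media that both held the solvent and differed in the compound. With 1 sample each, a difference between the cultures cannot be told apart from one due to the compound. Of the 10 transcripts, none differed 2-fold, against 1.74% of 24608 transcripts, and of the 7 with at least 100 reads none passed the lower threshold, against 2.93%. HMOX1 had a ratio of 1.00 (0.788 to 1.27) and TXN of 1.00 (0.928 to 1.09). Among the others with at least 100 reads, KEAP1 (1.12, interval 0.947 to 1.32), SRXN1 (1.12, 0.920 to 1.37) and GCLM (1.04, 0.799 to 1.35) lay above 1, and SOD1 (0.963, 0.895 to 1.04) and GCLC (0.911, 0.787 to 1.05) below it. NQO1 had a ratio of 1.43, which rests on 7 against 5 reads and has an interval from 0.391 to 5.72. NFE2L2 (0.978, 0.520 to 1.84) and PRDX1 (1.02, 0.335 to 3.13) had intervals that extend well to both sides of 1. The PRDX1 transcript NM_181697 stood at 1.05 (0.745 to 1.49). No member had an adjusted p under 0.05 in the exact binomial test, against 0.0528% of all transcripts, and none an unadjusted p under 0.05, against 7.71% of transcripts with at least 100 reads. The median log2 ratio of the 10 members was 0.015, with 7 above 0 and 3 below. Over the 7 with at least 100 reads it was 0.0060, with 5 above 0, beside -0.0018 for all transcripts with that many reads, of which 49.3% were above 0. For SOD1 and TXN, which had 1262 to 1538 reads in a sample, values 25% higher or 20% lower lie outside the interval in every comparison. For KEAP1, HMOX1, GCLM and SRXN1 at least 1 of these limits lies inside the interval in every comparison. For GCLC this holds in every comparison except BDE-209 against control (0.901 to 1.22). Over the 3 comparisons, 1 of the 30 intervals of members lay wholly on one side of 1, that of KEAP1 between DMSO and control.

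**Figure D3:**
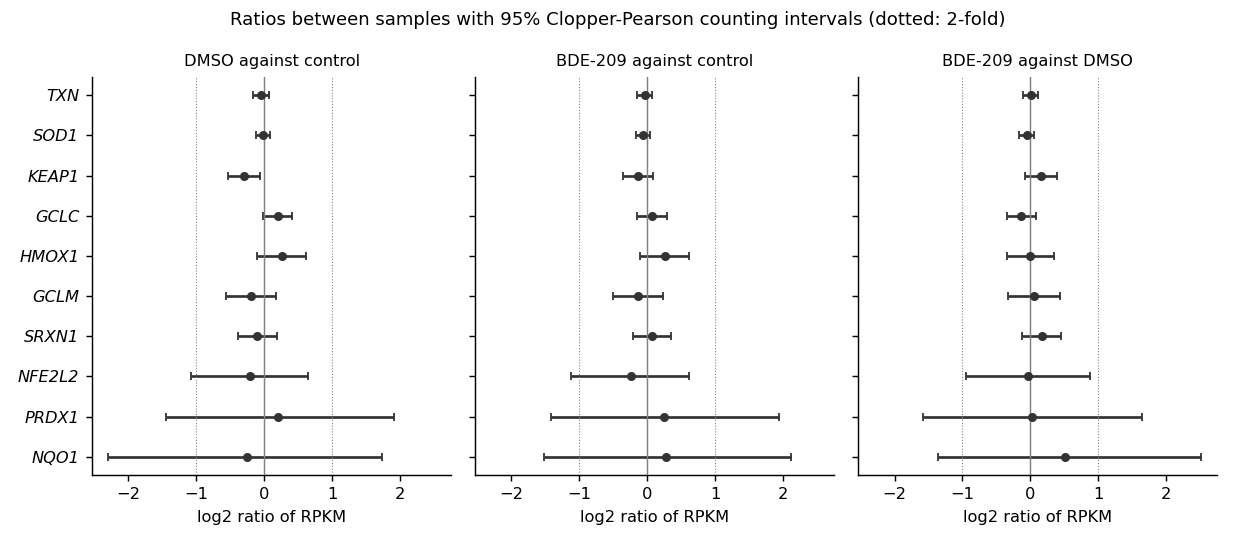
Log2 ratio of the RPKM values, with nothing added, of the 10 transcripts in the 3 comparisons, with 95% Clopper-Pearson counting intervals and dotted lines at 2-fold. The interval of KEAP1 between DMSO and control, from -0.52 to -0.063, is the single one that does not include 0.

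Such RNA levels are averages over a culture, in which fewer cells and less RNA per cell cannot be told apart. The subunits of glutamate-cysteine ligase can be set against each other within a sample. GCLC exceeded GCLM 1.04-fold in the control, 1.36-fold in DMSO and 1.19-fold in BDE-209. The change of this ratio between samples was not tested. KEAP1 exceeded the listed NFE2L2 transcript 14.5-fold, 13.7-fold and 15.7-fold in control, DMSO and BDE-209. NFE2L2 has 3 listed transcripts and KEAP1 has 2, so these are ratios of listed transcripts and not of the genes.

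A wider list of 78 genes around NRF2 and redox control was described in the same way, each gene by its highest listed transcript. This list too was made with earlier results of these data known. Of the 78 genes, 72 had a value in at least 1 sample. No transcript with a value was matched to MAFF, GPX7, SOD3, AKR1C1, AKR1C2 or AKR1C3. Since 96% of transcripts were matched to a symbol, a missing match cannot be told from a missing value. Between DMSO and control 1 of the 72 was higher in the exact binomial test after adjustment over all transcripts and 0 lower, against 0.411% of all transcripts in either direction. Between BDE-209 and control 2 of the 72 were higher and 0 lower, against 0.527%. Between BDE-209 and DMSO 0 genes had an adjusted p under 0.05 in the exact binomial test and 5 an unadjusted one (FTL, PRDX2, SESN1, SESN2 and TALDO1), against 8 between DMSO and control and 9 between BDE-209 and control. Of all transcripts with at least 100 reads, 7.71%, 12% and 12.8% had an unadjusted p under 0.05 in these 3 comparisons. The unadjusted counts cover all 72 genes, also those with fewer reads, so these shares are for an unlike set. The genes with an adjusted p under 0.05 were SLC7A11 in both comparisons with the control and SESN2 in BDE-209 against control.

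SLC7A11 encodes the cystine importer that supplies cysteine for glutathione synthesis, and both NRF2 and the stress factor ATF4 are known to activate it. It had 11.7 RPKM in the control (548 reads), 16.5 in DMSO (759 reads) and 16.6 in BDE-209 (750 reads), so both samples with DMSO were higher than the control and close to each other. Both are set against the same control sample, so a low control value would enter both ratios. The ratio was 1.40 for DMSO against control (95% interval 1.26 to 1.57, exact binomial test, adjusted p = 1.2e-06) and 1.42 for BDE-209 against control (1.27 to 1.59, exact binomial test, adjusted p = 4.9e-07). For BDE-209 against DMSO it was 1.01 (0.912 to 1.12). Its partner chain SLC3A2, which has 5 listed transcripts, had 1.76, 1.43 and 2.10 RPKM from 20, 16 and 23 reads. GSS, which completes glutathione synthesis, had 28.6, 31.7 and 31.7 RPKM.

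SESN2, sestrin 2, a stress-induced protein that aids KEAP1 degradation and restrains mTORC1, had 38.4 RPKM in the control (651 reads), 44.4 in DMSO (743 reads) and 50.2 in BDE-209 (822 reads). Its ratio was 1.31 for BDE-209 against control (1.18 to 1.45, exact binomial test, adjusted p = 0.00021). DMSO against control gave 1.16 (1.04 to 1.29, exact binomial test, adjusted p = 0.402) and BDE-209 against DMSO 1.13, which on the log2 scale is 0.18 (0.033 to 0.32, adjusted p = 0.92 in the same exact test).

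Past the lower threshold with at least 100 reads, SLC7A11 and SESN2 were joined by NFE2L3, a relative of NFE2L2, which was lower with BDE-209, at 7.82 RPKM (136 reads) against 10.6 in the control (191 reads), a ratio of 0.737 (0.587 to 0.924, exact binomial test, adjusted p = 0.34). Its value in DMSO was 9.22 RPKM. The lower threshold was passed by 1 of 46 genes of the list between DMSO and control (4.1% of all transcripts with that many reads), by 3 of 47 between BDE-209 and control (4.08%) and by 0 of 46 between BDE-209 and DMSO (2.93%). A 2-fold difference was reached by GSTK1, with 4 reads in the control, 13 in DMSO and 21 in BDE-209, in both comparisons with the control, and by SESN1, which had 25 reads in the control, 8 in DMSO and 20 in BDE-209, between DMSO and control. Over all transcripts 1.57% differed 2-fold between DMSO and control and 1.5% between BDE-209 and control, against 2 and 1 of the 72 genes. Neither GSTK1 nor SESN1 had an adjusted p under 0.05 in the exact binomial test. Both rest on few reads, and GSTK1 has 4 listed transcripts. Over the genes of the list with at least 100 reads, the median log2 ratio was -0.014 for DMSO against control (46 genes, 21 above 0), -0.018 for BDE-209 against control (47 genes, 20 above 0) and -0.0087 for BDE-209 against DMSO (46 genes, 20 above 0).

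**Figure D4:**
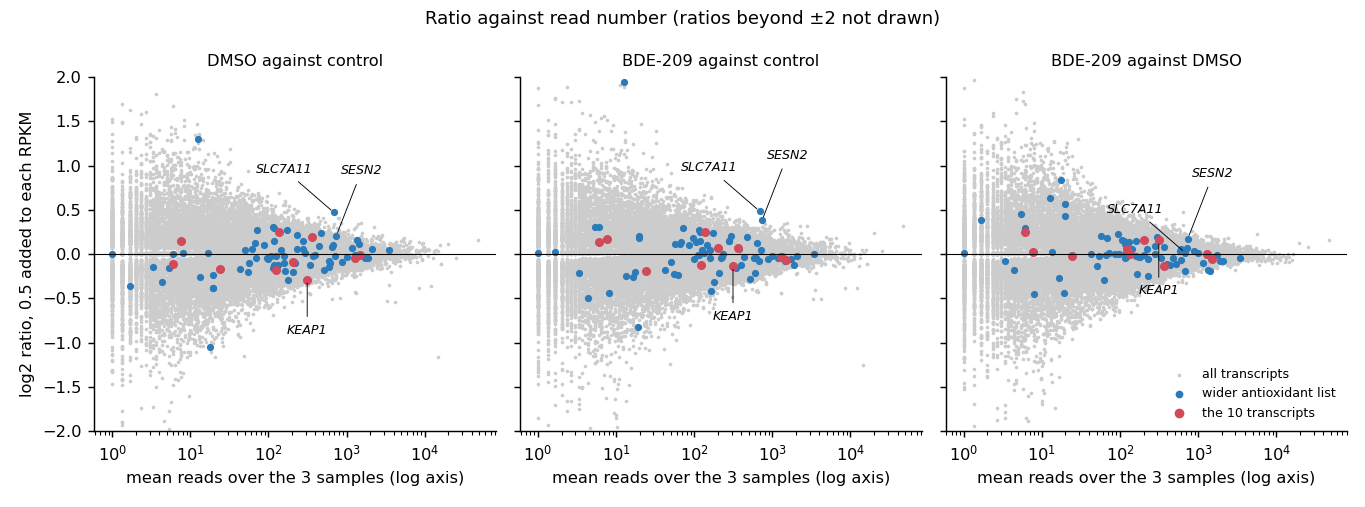
Log2 ratio, with 0.5 added to each RPKM, against the mean reads over the 3 samples (log axis) for transcripts with at least 1 read on average (grey), the wider list (blue) and the 10 transcripts (red), in 3 comparisons. SLC7A11 stands at 0.47 and 0.49 in the comparisons with the control and at 0.014 between BDE-209 and DMSO, whereas KEAP1 stands at -0.29, -0.13 and 0.16.

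Some further genes of the list, named for their role after their values were seen, give context for the members. CUL3, the scaffold of the ligase, had 28.3, 26.6 and 27.2 RPKM in control, DMSO and BDE-209, and RBX1, its RING subunit, had 31.2, 28.6 and 31.6 RPKM. NFE2L1, another relative of NFE2L2, had 30.6, 30.1 and 31.6 RPKM. MAFG, a DNA-binding partner of NRF2, had 11.6, 11.7 and 13.5 RPKM. BACH1, a repressor that competes with NRF2 at HMOX1, had 6.81, 6.60 and 7.81 RPKM and has 3 listed transcripts. Lower still were MAFK, another small MAF partner, with 4.19, 4.06 and 4.66 RPKM, and BACH2, a relative of BACH1, with 2.72, 2.39 and 2.70 RPKM.

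Among the enzymes, ferritin heavy chain FTH1 was the highest of the wider list, with 577, 596 and 576 RPKM. GSTP1, a glutathione transferase, had 377, 367 and 364 RPKM. The peroxiredoxins with 1 listed transcript, PRDX2, PRDX3, PRDX4 and PRDX6, had mean levels of 289, 171, 139 and 233 RPKM, against 10.7 to 14.6 RPKM for the highest PRDX1 transcript. PRDX5, with 3 listed transcripts like PRDX1, had 35.1, 32.7 and 36.3 RPKM on the highest of them. TXNRD1, the reductase of thioredoxin and a known NRF2 target, has 5 listed transcripts and had 0.279, 0.283 and 0.463 RPKM on the highest of them, from 5, 5 and 8 reads. PGD and TALDO1, enzymes of the pentose phosphate pathway, had mean levels of 126 and 107 RPKM. OSGIN1, a gene that NRF2 activates, had 1 read in BDE-209 and none in the other samples.

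In the genome build hg19 (GRCh37), GENCODE places KEAP1 on chromosome 19 from 10596801 to 10614234 and GCLM on chromosome 1 from 94350755 to 94375012, both on the minus strand. HMOX1 lies on chromosome 22 from 35776354 to 35790207 on the plus strand, and GCLC on chromosome 6 from 53362139 to 53481768 on the minus strand. All are protein-coding genes, and the values count reads over the exons of the listed mRNA.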

How the data were processed

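The RNA of HEK293T cells in 3 conditions (1 sample each) was read from one end over 49 bases. Reads were mapped by the authors to hg19 (SOAPaligner 2.21) with no more than 2 mismatches, those with a unique position were kept, and RPKM values for each RefSeq transcript were deposited. Absent transcripts were set to 0. Strand and the counting of shared reads are not given in the sources used here.

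Lists were joined by identifier with pandas 2.3.3 in Python 3.11.15, and numba 0.67.0, numpy 2.4.6 and scipy 1.17.1 did the computing. Read totals were taken where the inverse RPKM of low values gave whole lengths, and reads as the smallest whole numbers that fit the 6 digits of all 3 values. They are lower bounds, and 5 transcripts gave none. The scripts were tested on simulated data. Symbols came from RefSeq GRCh38.p14 for 24432 transcripts (96%).

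A difference was called at 2-fold, the fold of the study, with 0.5 added to each RPKM. The NOISeq probability was not used, because it rests on simulated samples. The exact binomial test used the recovered totals. The rule for naming covered the members and any wider-list gene past the lower threshold with 100 reads or past the adjusted test. GSTK1, SESN1 and genes named for their role fall outside it and were chosen after their values were seen. Members and lists were chosen with earlier results of these data known. Alternatives covered the pseudocount (0.1 and 1), median-of-ratios scaling, a filter at 1 RPKM, the lower threshold and the adjustment. Reads from annotated lengths were not computed. Some genes of the lists are not reported here.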

Additional observations from a re-analysis of the deposited data

How the results depend on the processing

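The number of members past 2-fold was 0 in each comparison, also with 0.1 or 1 added to each RPKM, with nothing added (a setting chosen after seeing the data), with median-of-ratios scaling, without transcripts under 1 RPKM, and at the lower threshold (25% higher or 20% lower) in place of 2-fold. The number past the adjusted exact binomial test was 0 at the split from median-of-ratios scaling and when adjusted over transcripts with at least 10 reads. Without adjustment, a setting added after seeing the data, it was 1 (KEAP1) between DMSO and control and 0 in the other comparisons. All 120 member log2 ratios under 4 alternatives stayed within their counting intervals and kept their sign, with shifts of at most 0.26, which belonged to NQO1. Part of this was fixed in advance. The ratio with nothing added is the estimate on which its interval rests, and only the scaling could have changed a sign. The size factors lay between 0.999 and 1.00. No paired analysis was possible because each condition had 1 sample, and for the same reason no sample could be left out. Read numbers from annotated transcript lengths were not run, because no table used here gives lengths of these RefSeq transcripts. The NQO1, PRDX1 and NFE2L2 transcripts among the 10 members had 5 to 27 reads in a sample, which limits the precision of their ratios.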

Other observations

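The wider list also holds genes with 3 or more listed transcripts. They are 12 of the 72 genes, and 4 of these 12 reached 100 reads in a sample. Of all 72 genes, 47 had at least 100 reads in BDE-209 or the control. The share of genes whose highest transcript stayed under 1 RPKM was 27.9% with 1 listed transcript, 27.1% with 2, 48.2% with 3 and 55.6% with 4 or more. SQSTM1, which encodes the autophagy receptor p62 that sequesters KEAP1 and has 3 listed transcripts, had 1.13, 0.858 and 0.878 RPKM in control, DMSO and BDE-209. PRDX2, a cytosolic peroxiredoxin with 1 listed transcript, had 287 RPKM in the control, 310 in DMSO and 271 in BDE-209. Its ratio of BDE-209 to DMSO was 0.873 (95% interval 0.811 to 0.941, exact binomial test, adjusted p = 0.275). FTL, the ferritin light chain, had 307, 342 and 302 RPKM, with a ratio of BDE-209 to DMSO of 0.884 (0.819 to 0.954, exact binomial test, adjusted p = 0.562). PRDX2 and FTL were named after their values were seen.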
